A study of Mus musculus with 6 samples.

Results

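The transcripts of the adult haemoglobin chains and of Alas2, the red-cell form of the first enzyme of haem synthesis, were followed in whole mouse dorsal skin. The members were taken by symbol from a list of 5 genes, Hba-a1, Hba-a2, Hbb-bs, Hbb-bt and Alas2, of the 55487 in the deposited table of counts. All 5 were found and all 5 passed the filter on low counts. Polyadenylated RNA was sequenced from skin at day 2 of treatment with DPCP (diphencyprone), a hapten that sets off contact allergy on the skin it is painted on. In 3 libraries the mice had also received clodrosome (spelled Codrosome in the sample titles), liposomes carrying clodronate, which kills phagocytes that engulf them. In the other 3 they had received encapsome, the same kind of liposome without the drug. Every library is from DPCP-treated skin, so no untreated skin enters the comparison. Strain, sex and age are not given in the sources used here, and neither is whether a library holds RNA of 1 animal or of a pool. The p-values below therefore measure the spread between these libraries, which may be technical. The letters A, B and C follow the order of each group's columns and pair no library with one of the other group.

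Haemoglobin is built from alpha and beta globin chains that each hold a haem group. In the mouse the adult alpha chains come from the neighbouring genes Hba-a1 and Hba-a2, and the adult beta chains of one common haplotype come from Hbb-bs and Hbb-bt. Alas2 makes 5-aminolevulinate, the first precursor of haem, in developing red cells, while the related gene Alas1 does so in other tissues. Mature red cells have no nucleus but young ones, the reticulocytes, still carry globin and Alas2 messages, so these messages reach any tissue with its blood. Macrophages clear aged red cells and take up free haemoglobin.

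The stretches before the start sites of the 5 genes show how alike the globin pairs are there. The 150 bases before each RefSeq transcript start are printed 5′ to 3′ on the strand of the gene (RefSeq, build GRCm38.p6), in lower case with matches to 4 short motifs in capitals. TATAA, the core of the TATA box, was searched on the sense strand only. The CCAAT box was searched as CCAAT and in reverse as ATTGG. The core of the site for Krüppel-like factors was searched as CACCC and in reverse as GGGTG, and that of the site for GATA factors as GATAA and in reverse as TTATC.
Hba-a1, chr11:32283522-32283671, plus strand: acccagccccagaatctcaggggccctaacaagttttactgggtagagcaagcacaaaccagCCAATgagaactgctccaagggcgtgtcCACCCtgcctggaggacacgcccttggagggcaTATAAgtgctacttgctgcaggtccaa
Hba-a2, chr11:32296342-32296491, plus strand: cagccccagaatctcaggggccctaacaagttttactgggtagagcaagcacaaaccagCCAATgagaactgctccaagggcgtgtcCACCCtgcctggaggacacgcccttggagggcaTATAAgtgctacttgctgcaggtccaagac
Hbb-bs, chr7:103827929-103828078, minus strand: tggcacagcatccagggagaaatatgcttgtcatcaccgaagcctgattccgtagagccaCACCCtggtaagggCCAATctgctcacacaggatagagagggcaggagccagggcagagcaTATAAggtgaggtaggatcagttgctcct
Hbb-bt, chr7:103813924-103814073, minus strand: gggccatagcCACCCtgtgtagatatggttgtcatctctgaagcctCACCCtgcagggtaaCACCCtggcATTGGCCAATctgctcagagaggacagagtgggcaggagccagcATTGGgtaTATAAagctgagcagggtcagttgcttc
Alas2, chrX:150547267-150547416, plus strand: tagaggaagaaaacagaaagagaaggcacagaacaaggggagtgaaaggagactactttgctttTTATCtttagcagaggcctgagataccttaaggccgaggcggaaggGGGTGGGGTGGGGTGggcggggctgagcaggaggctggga

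The 4 globin stretches each held the TATA, CCAAT and CACCC motifs. Of 32851 RefSeq promoter stretches of the same 150 bases, 9.99% held the TATA motif, 24.5% the CCAAT motif, 37.4% the CACCC motif and 0.782% all 3 together. TATAA began 27 bases before the start in Hba-a1, 30 in Hba-a2, 29 in Hbb-bs and 28 in Hbb-bt. The Alas2 stretch had neither the TATA nor the CCAAT motif. It held 3 adjacent copies of GGGTG, and the reversed GATA motif 86 bases before the start. The GATA motif stood in 13.3% of all stretches of 150 bases. In the globins it lay outside the printed stretch, between 182 and 209 bases before the start. The stretches of Hba-a1 and Hba-a2 share a run of 247 identical bases over the 250 bases before their starts, with starts set 3 bases apart, whereas Hbb-bs and Hbb-bt are 70.9% identical there. These matches describe the letters only. The annotation behind the deposited counts begins all 5 genes further upstream than RefSeq does. The printed stretches of Hba-a1 and Hbb-bs lie wholly inside the gene in it. Those of Hba-a2, Hbb-bt and Alas2 lie inside it only at the end nearest the start.

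The coding sequences are closer still. Hba-a1 and Hba-a2 differ at 1 of 426 coding bases, and Hbb-bs and Hbb-bt at 1 of 441 (GENCODE transcripts of GRCm38). Of all stretches of 150 bases, the length of 1 sequenced read, in the Hba-a1 transcript, 48.4% occur letter for letter in Hba-a2, and 65.7% of those of Hba-a2 occur in Hba-a1. For the beta pair the shares are 58.7% of Hbb-bs and 50.7% of Hbb-bt. Reads that match 2 places equally well were left out at the counter's default settings, so all 4 globin counts miss such reads, and how a pair divides is uncertain. No exonic base of a globin gene is shared with another gene. In Alas2, 372 of 2403 exonic bases (15.5%) are also exon of Apex2 or of a microRNA gene, and reads there count for neither. Apex2, a DNA repair nuclease, was near level in all libraries, from 13.5 to 18.3 CPM, with a log2 fold change of 0.17 (edgeR adjusted p = 0.325).

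The libraries held between 26649396 and 116965654 counts, and clodrosome library A was the deepest. Levels are given as CPM, the count of a gene per megacount of its library (the usual counts-per-M scale) after TMM scaling. A count of 0 allows up to 0.0502 CPM in clodrosome library A and 0.166 to 0.228 CPM in the others (3 fragments or 6 counts; counting error only). The 6 macrophage genes taken as a check of the depletion were Adgre1, Cd68, Mrc1, Cd163, C1qa and Csf1r. All 6 were called lower (edgeR adjusted p from 3.4e-04 to 0.0183), against 13.0% of all genes tested. The Csf1r call was lost without clodrosome C or encapsome A (edgeR adjusted p = 0.055 and 0.0625). The summed level of the 6 was 491 to 1178 CPM with clodrosome and 2656 to 3183 CPM with encapsome. Clodrosome library B was the lowest of its group for all 6. Libraries that stand apart for the globins are named with the results.

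All 5 genes averaged lower with clodrosome, and in none of them did the levels of the groups overlap. Groups did not overlap in this direction for 20.7% of the 17988 genes tested. The 4 globins together made up 0.0110% to 0.0193% of counts with clodrosome and 0.0222% to 0.0652% with encapsome. In clodrosome libraries A, B and C their sum was 163, 111 and 190 CPM (mean 154 ± 40.2, SD, n = 3). In encapsome libraries A, B and C it was 229.7, 654 and 225 CPM (mean 369.8 ± 246, SD, n = 3), a 2.40-fold difference of means. Encapsome library B stood far above A and C. Without B the encapsome mean was 228 CPM, which is 1.47-fold above clodrosome.

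Of the alpha chains, Hba-a1 (ENSMUSG00000069919, chromosome 11, 32283511 to 32284465, plus strand, GRCm38) stood at 45.8, 29.0 and 52.5 CPM in clodrosome libraries A, B and C. In encapsome libraries A, B and C it stood at 61.1, 158 and 54.9 CPM. The highest clodrosome and the lowest encapsome library were thus only 52.5 and 54.9 CPM apart. Its log2 fold change was -1.10 ± 0.376 (SE), and it missed the threshold (edgeR adjusted p = 0.0642). Hba-a2 (ENSMUSG00000069917, chromosome 11, 32296489 to 32297298, plus strand) stood at 17.9, 13.9 and 20.5 CPM with clodrosome and at 27.8, 66.8 and 24.3 CPM with encapsome. Its log2 fold change was -1.18 ± 0.340 (SE) and passed (edgeR adjusted p = 0.0346), a 2.27-fold difference.

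Of the beta chains, Hbb-bs (ENSMUSG00000052305, chromosome 7, 103826534 to 103828096, minus strand) stood at 85.5, 58.4 and 101 CPM with clodrosome and at 120, 353 and 123 CPM with encapsome. It differed 2.44-fold. On the log2 scale that is -1.29 with an SE of 0.391, and it passed (edgeR adjusted p = 0.0427). Hbb-bt (ENSMUSG00000073940, chromosome 7, 103812524 to 103813996, minus strand) stood at 13.4, 9.34 and 16.1 CPM with clodrosome and at 20.9, 76.8 and 22.8 CPM with encapsome. Its fall was larger than that of the other 4 genes in size, at -1.63 ± 0.457 (SE; edgeR adjusted p = 0.0316) or 3.10-fold, but the SEs overlap and the difference between genes was not tested.

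Alas2 (ENSMUSG00000025270, chromosome X, 150547375 to 150570638, plus strand) was the scarcest of the 5. It stood at 5.65, 4.44 and 5.86 CPM with clodrosome, where its counts were 675, 135 and 212. With encapsome it stood at 6.71, 22.2 and 8.79 CPM, on counts of 208, 709 and 231. It differed 2.36-fold. On the log2 scale that is -1.24 with an SE of 0.383, and it passed narrowly (edgeR adjusted p = 0.0459). Outside encapsome library B all 5 other libraries lay within 4.44 to 8.79 CPM.

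**Figure D1:**
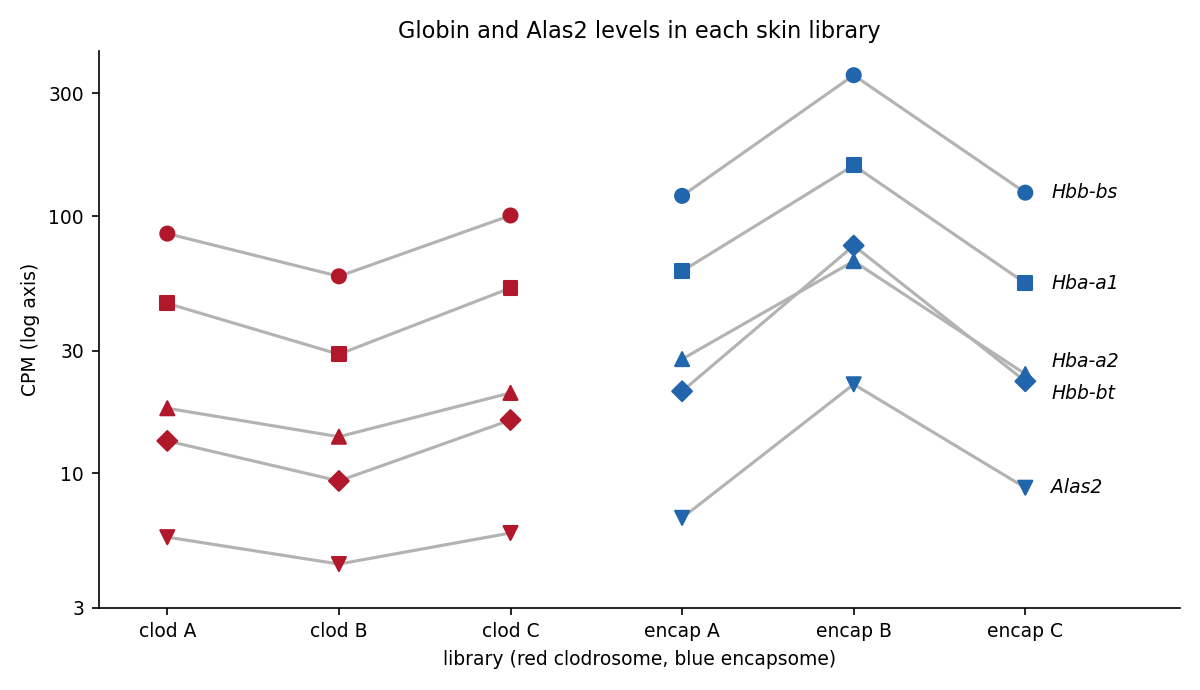
CPM (vertical log axis) of the 5 genes in the 3 clodrosome (red) and 3 encapsome (blue) libraries, 1 point per library; grey lines join libraries of a group for the eye and imply no order. Encapsome library B is the highest and clodrosome library B the lowest for each gene, and Hbb-bs runs from 58.4 to 353 CPM.

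In sum 4 of the 5 genes were called lower, against 13.0% of all genes tested (22.4% in either direction), and all 5 had an unadjusted p under 0.05, against 35.8% of all genes in either direction. The calls were close to the threshold and changed when single libraries were left out. Without encapsome library B the log2 fold changes shrank to -0.45, -0.58, -0.58, -0.75 and -0.54 for Hba-a1, Hba-a2, Hbb-bs, Hbb-bt and Alas2, or 1.37-fold to 1.68-fold. Only Hbb-bt was then called (edgeR adjusted p = 0.0478), while 13.5% of all genes were. Leaving out clodrosome library A, B or C left 0 of the 5 called by edgeR, although 5, 4 and 5 had an unadjusted p under 0.05. Of all genes, 17.4%, 23.8% and 14.4% were called in these fits. DESeq2, which called 22.8% of all genes, also called 0 of 5, with 4 at an unadjusted p under 0.05 and adjusted p-values from 0.0513 to 0.168. In bulk tissue, fewer red cells and less RNA per cell cannot be told apart.

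**Figure D2:**
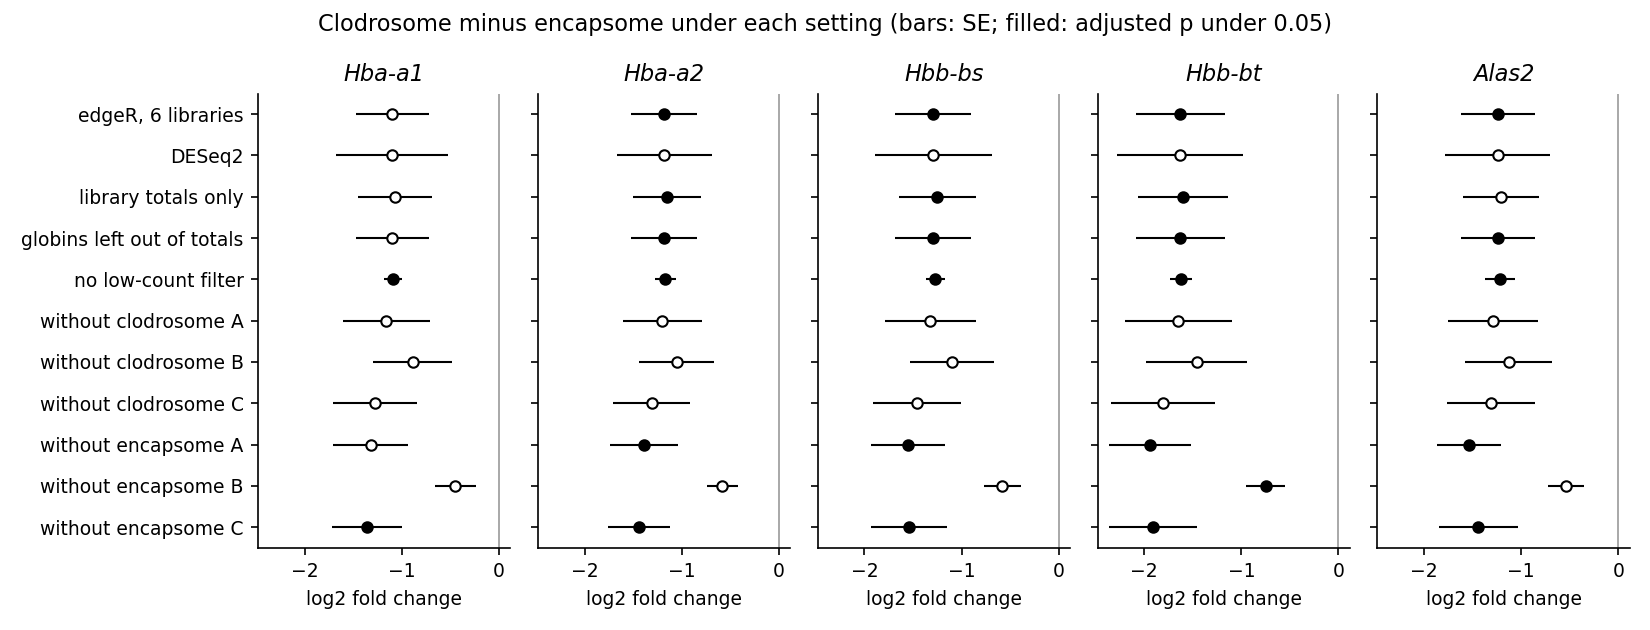
Log2 fold change (clodrosome minus encapsome, horizontal axis) of each gene with 6 libraries and under each other setting; bars are SE and filled points have an adjusted p under 0.05. Every value is negative, and those without encapsome library B lie nearest to 0, at -0.75 to -0.45.

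Encapsome library B stood 2.57-fold to 3.52-fold above the mean of encapsome A and C for the 5 genes, with Hba-a2 at the low and Hbb-bt at the high end. Clodrosome library B stood at 0.591 to 0.772 of the mean of clodrosome A and C. Encapsome B was the highest of its group for 32.4% of all genes tested, and clodrosome B the lowest of its group for 38.9%. The spread among encapsome libraries was wide for these genes. The SD of log2 CPM was 0.79 to 1.05 across the 5 genes, against a median of 0.11 over 15296 tested genes (those averaging 1 CPM or more), and exceeded that of 99.3% to 99.8% of them. Among clodrosome libraries it was 0.22 for Alas2 and 0.29 to 0.45 for the globins, against a median of 0.14. In 25 of the 15296 genes (0.163%) encapsome B was at least 2-fold above both other encapsome libraries, and the 5 genes are among these 25. That count was added after the levels were seen. The total of encapsome B, 32066256 counts, was close to that of encapsome A, and its share of mitochondrial counts, 3.80%, lay within the 3.30% to 4.12% of all libraries.

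Divided by exonic length, Hbb-bs was the most abundant of the 5 in every library. It reached 76.0 to 131 CPM per kilobase with clodrosome and 156 to 460 with encapsome. Hba-a1 followed at 35.8 to 64.7 and 67.6 to 194, then Hba-a2 at 20.8 to 30.8 and 36.5 to 100.2, and Hbb-bt at 13.3 to 22.9 and 29.7 to 109 CPM per kilobase. In encapsome B alone Hbb-bt stood above Hba-a2. Alas2 was far below, at 1.85 to 2.44 and 2.79 to 9.24 CPM per kilobase. This order is uncertain within each globin pair because of the reads left out.

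Ratios between the genes varied far less than their levels. The globin sum ran from 111 to 654 CPM over the 6 libraries. The alpha to beta ratio of counts per kilobase ran from 0.517 to 0.638, a 1.23-fold range. It was 0.631 ± 0.00936 (SD, n = 3) with clodrosome and 0.562 ± 0.0596 (SD, n = 3) with encapsome (exact two-sided permutation p = 0.2). Hba-a2 to Hba-a1 ran from 0.476 to 0.582 (exact permutation p = 0.4), and Alas2 to the globin sum from 0.00923 to 0.0127 (exact permutation p = 0.7). The groups did not overlap for Hbb-bt to Hbb-bs alone, at 0.171, 0.175 and 0.175 with clodrosome and 0.190, 0.238 and 0.202 with encapsome. There the exact permutation p was 0.1, the smallest that 3 against 3 allows, and 0.4 after adjustment over the 4 ratios compared. The test cannot reach 0.05, so it does not show that the ratios are alike.

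**Figure D3:**
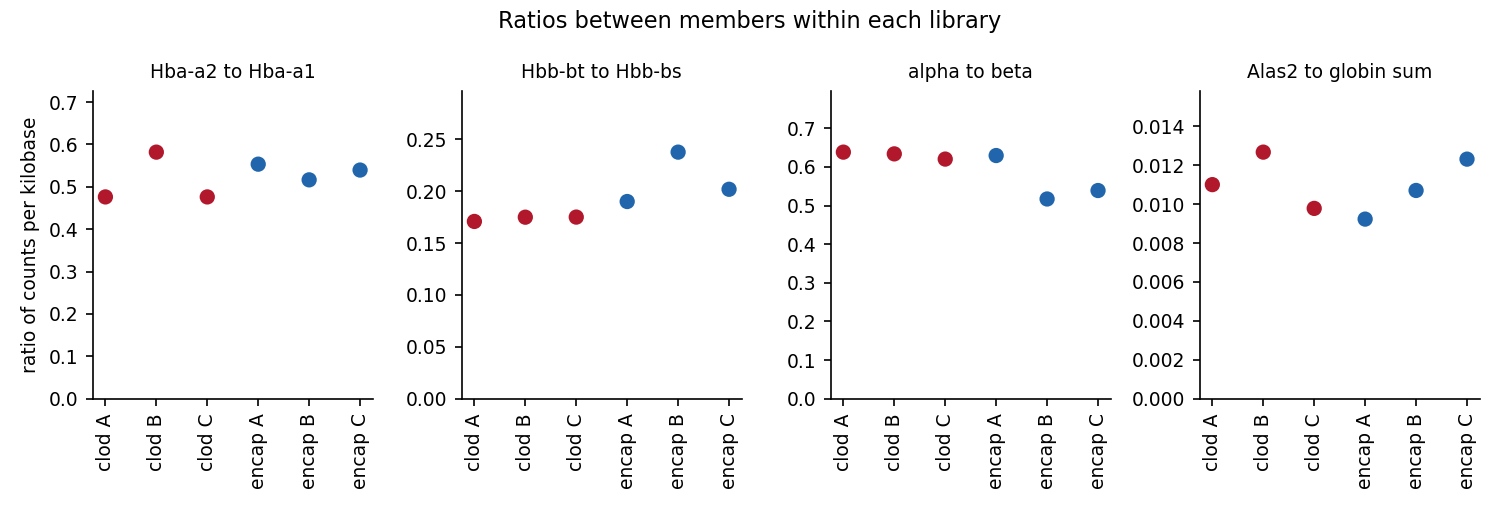
Ratio of counts per kilobase (vertical axes from 0) between members in each library, red for clodrosome and blue for encapsome. The alpha to beta ratio stays within 0.517 to 0.638, while Hbb-bt to Hbb-bs is at most 0.175 with clodrosome and at least 0.190 with encapsome.

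Profiles over the 6 libraries were then compared with that of the globin sum, each as log2 CPM about its own mean, by the root mean square difference. Of 13844 candidate genes, Alas2 had the most similar profile, 0.165 log2 units away, against a median of 0.80. The next 9 lay between 0.312 and 0.357. Among them were Uox, the gene of urate oxidase, Sh3rf3, the vasopressin receptor gene Avpr1a, Ms4a2, a chain of the IgE receptor of mast cells, Galnt9, Trim30c, the eosinophil chemokine gene Ccl24 and the adhesion gene Nrcam. Uox and Ccl24 shared the high value of encapsome B, at 6.54 and 17.3 CPM against at most 2.55 and 6.65 CPM in the other encapsome libraries. These likenesses rest on 6 libraries and describe them only.

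**Figure D4:**
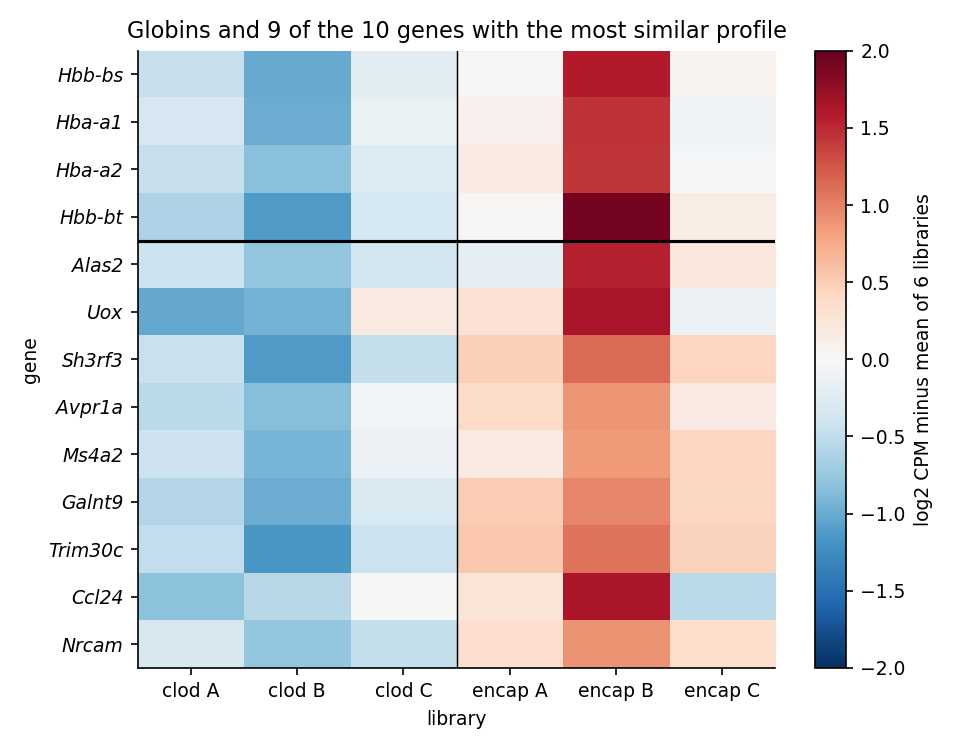
Log2 CPM minus the mean of the 6 libraries (colour scale) for the 4 globins, above the line, and 9 of the 10 genes whose profile is most like the globin sum, below it. Alas2, at a distance of 0.165, shows the same dark column in encapsome library B as the globins.

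Other red-cell genes did not move as a block. Of 28 genes of the red-cell membrane and its enzymes 27 were matched, 26 had counts, Icam4 had none, and 16 could be tested. Of these 3 fell and 2 rose, a share near the 22.4% of all genes called in either direction. The median log2 fold change was -0.115, while over all tested genes the median was 0.00898. Their summed level was 667 to 811 CPM with clodrosome and 736 to 782 CPM with encapsome, mostly from Aqp1, Tfrc and Slc2a1, which many cells use. Gypc, glycophorin C, fell by 0.41 (edgeR adjusted p = 0.0176), a call lost without clodrosome C, encapsome B or encapsome C (edgeR adjusted p from 0.0634 to 0.0705). Tmcc2, a membrane protein, fell by 0.50 (edgeR adjusted p = 0.0330), a call lost without any 1 library other than clodrosome C (edgeR adjusted p from 0.0553 to 0.112). Sptb, beta spectrin, and Car2, carbonic anhydrase II, rose by 0.65 and 0.61 (edgeR adjusted p = 0.0106 and 0.00108). Bpgm, which makes the regulator of oxygen release in red cells, was picked after its values were seen. It stood at 28.7 CPM in encapsome B and between 17.2 and 20.1 CPM in the other 5 libraries (edgeR adjusted p = 0.283). Slc4a1, the anion exchanger band 3, also picked after its values were seen, was too low to test. It stood at 0.117, 0.132 and 0.276 CPM with clodrosome and 0.290, 1.06 and 0.761 CPM with encapsome, and in clodrosome B that is under the limit for a count of 0.

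Transcription factors and the erythropoietin receptor of the red-cell lineage mostly did not pass the test. Klf1, a regulator of adult globin genes picked after its values were seen, stayed at or under 0.332 CPM and was not tested. Gata1 stood between 0.862 and 1.88 CPM (edgeR adjusted p = 0.418). Of 9 tested genes 2 fell and 1 rose, where 22.4% of all genes were called in either direction, and the median was -0.0382. With so few genes the count is no result about the list. Epor, the erythropoietin receptor, stood at 0.461 to 1.30 CPM with clodrosome and at 2.67 to 3.23 CPM with encapsome. Its log2 fold change was -1.53 ± 0.325 (SE; edgeR adjusted p = 0.00957). Lmo2, a cofactor in blood and endothelial cells, fell by 1.32 (edgeR adjusted p = 2.4e-04), and Bcl11a, a repressor of embryonic globins, rose by 0.50 (edgeR adjusted p = 0.00900). Encapsome B lay between A and C for Epor, unlike for the globins and Alas2.

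Of 13 other names of the globin family 11 were matched. The embryonic genes Hba-x, Hbb-y and Hbb-bh1, with Hbb-bh2, Hbb-bh0 and Hbb-bh3, had 0 counts in all 6 libraries. Hbq1a, Hbq1b and neuroglobin had 34, 23 and 18 counts over all libraries. Cygb, cytoglobin of fibroblasts, stood at 15.7 to 21.9 CPM with clodrosome and 29.6 to 30.6 CPM with encapsome. It fell by 0.67 (log2; edgeR adjusted p = 0.00381). Mb, the myoglobin of muscle, stood at 59.8 to 89.5 CPM with clodrosome and 33.5 to 61.1 CPM with encapsome, and the groups overlapped (edgeR adjusted p = 0.117).

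Most of the haem pathway did not pass the test. Of 11 tested genes of haem synthesis and its transport 10 did not pass, and the median was 0.136. Over all genes tested only 22.4% were called in either direction, and a count this small is no result about the list. Alas1, the general first enzyme, stood at 104 to 137 CPM with clodrosome and 98.2 to 111 CPM with encapsome (edgeR adjusted p = 0.194). It passed without clodrosome library B (edgeR adjusted p = 0.0232). Cpox, coproporphyrinogen oxidase, rose by 0.26 (edgeR adjusted p = 0.0330), a call lost without clodrosome A, clodrosome C, encapsome B or encapsome C (edgeR adjusted p from 0.0633 to 0.129). Fech, which puts the iron into haem, had a log2 fold change of -0.03 (edgeR adjusted p = 0.854). Encapsome B was the highest of its group for 3 of the 11, against 32.4% of all genes tested.

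Genes of haem uptake and breakdown, of which Cd163 also stands among the 6 macrophage genes, were called in 14 of 17 cases, 11 lower and 3 higher, with a median of -0.54. Over all genes tested 13.0% were called lower and 9.41% higher. Cd163, the receptor for haemoglobin bound to haptoglobin, fell by 2.19 (edgeR adjusted p = 0.00967). Hmox1, haem oxygenase, fell by 0.81 (edgeR adjusted p = 0.00147) and Blvrb, a biliverdin reductase, by 0.97 (edgeR adjusted p = 1.07e-04). Hp, haptoglobin, rose by 0.45 (edgeR adjusted p = 0.0242), a call lost without clodrosome C, encapsome A or encapsome C (edgeR adjusted p from 0.0669 to 0.0861). Cd163, Hpx and Slc40a1 were picked after their values were seen. Hpx, the haem-binding hemopexin, rose by 0.99 (edgeR adjusted p = 0.00728) and Slc40a1, the iron exporter ferroportin, by 0.68 (edgeR adjusted p = 0.00201). The iron store genes Ftl1 and Fth1 fell by 1.13 and 0.74 (edgeR adjusted p = 2.38e-04 and 0.00269). Encapsome B was the highest of its group in 2 of the 17, against 5 of 5 for the globins and Alas2 and 32.4% of all genes tested.

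Markers of other blood cells, of vessels and of muscle were set beside the globins. Of 14 platelet genes 8 were tested, and encapsome B was the highest of its group in 7 of the 8, against 32.4% of all genes tested. Their summed level was 184 to 276 CPM with clodrosome and 298 to 385 CPM with encapsome. Most of the sum came from Pf4 and Selp. Pf4 stood at 41.4 to 90.7 CPM with clodrosome and 212 to 264 CPM with encapsome, and Selp at 98.1 to 154 and 14.4 to 25.8 CPM. Of the 8 tested, 3 were called lower and 1 higher, with a median log2 fold change of -0.167. Over all genes 13.0% were called lower and 9.41% higher. The defining platelet genes Gp9, Gp6 and Gp1bb were at or near 0, at most 0.250 CPM, and Gp1ba and Clec1b reached 0.908 and 1.11 CPM. Itga2b, the platelet integrin chain, stood between 6.87 and 9.99 CPM, highest in encapsome B (edgeR adjusted p = 0.263). Pf4 and P2ry12, which macrophages can also make, fell by 1.74 and 1.87 (edgeR adjusted p = 0.00119 and 0.00105). Ppbp, a platelet chemokine, stood at 20.8, 10.4 and 31.6 CPM with clodrosome and at 38.0, 51.8 and 41.6 CPM with encapsome. It fell by 1.06 (edgeR adjusted p = 0.0369), a call lost without encapsome library B (edgeR adjusted p = 0.132), encapsome A or C or clodrosome A (edgeR adjusted p from 0.0578 to 0.0845) and in DESeq2 (adjusted p = 0.0820). Selp, P-selectin of platelets and endothelium, rose by 2.56 (edgeR adjusted p = 1.32e-04).

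Neutrophil genes did not follow the globins across groups. Of 14 genes 11 were tested, 2 rose and none fell, a share near the 22.4% of all genes called in either direction. The median was -0.0752, although their sum was higher with clodrosome. It was 2451 to 3374 CPM with clodrosome, highest in library B, and 1359 to 2063 CPM with encapsome, again highest in B. Most of the sum came from Lcn2, S100a8 and S100a9, at 1298, 624 and 1017 CPM in clodrosome B. S100a8 and S100a9 did not pass (edgeR adjusted p = 0.111 and 0.124). Which cells this RNA came from was not tested. Retnlg and Lcn2 rose by 2.07 and 1.73 (edgeR adjusted p = 3.66e-04 and 1.23e-04). Csf3r, the receptor for G-CSF, stood at 143, 167 and 114 CPM with clodrosome and at 132, 210.5 and 149 CPM with encapsome. The elastase gene Elane and Mpo stood at no more than 0.188 CPM. Clodrosome B, the lowest library for each globin, was thus the highest of its group for this sum.

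Genes of blood endothelium went the other way from the globins. All 12 were tested, 8 rose and none fell, with a median of 0.442, where 9.41% of all genes were called higher. Pecam1, an adhesion molecule of endothelium, rose by 0.59 (edgeR adjusted p = 0.00187) and Car4 by 2.02 (edgeR adjusted p = 8.51e-05). Cdh5, endothelial cadherin, stood at 93.2 to 109 CPM with clodrosome and 79.7 to 96.8 CPM with encapsome (edgeR adjusted p = 0.166). Within encapsome, B was the highest for 9 of the 12 genes, as for the globins, against 32.4% of all genes tested. The summed level was 781 to 862 CPM with clodrosome and 509 to 597 CPM with encapsome. Of 10 skeletal muscle genes 9 were tested and 5 rose, with sums of 4095 to 5655 and 2932 to 3477 CPM, and encapsome B was the highest of its group for none. The part of blood content, vessels, muscle or remaining macrophages in the lower globin levels was not tested.

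**Figure D5:**
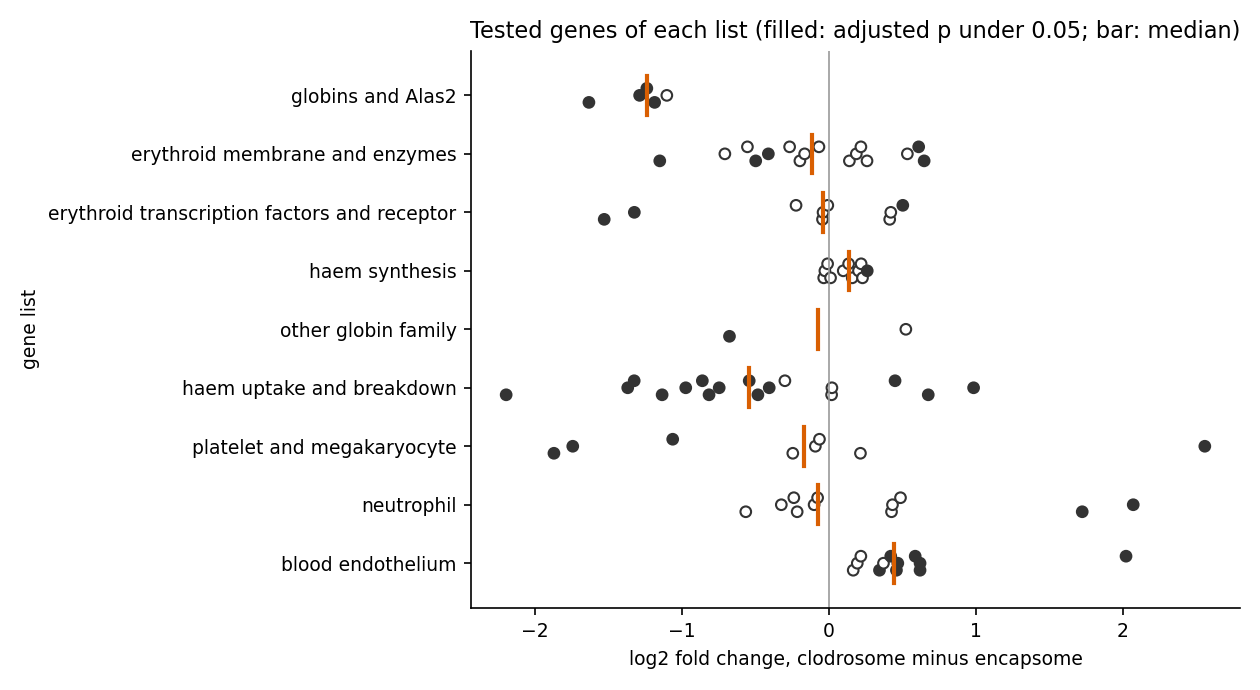
Log2 fold change (clodrosome minus encapsome, horizontal axis) of each tested gene by list, filled where the adjusted p is under 0.05, with the median as a bar. The globins and Alas2 lie between -1.63 and -1.10, the haem synthesis genes around 0.136 and the endothelial genes around 0.442.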

How the data were processed

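Polyadenylated RNA of 6 skin libraries was measured. The submitters' processing notes name DESeq2 1.34.0, featureCounts 1.6.2, HISAT2 2.2.1, Trimmomatic 0.36, StringTie 2.2.1 and build mm10. What the authors deposited is, per the file headers, a table of unnormalized read counts from featureCounts with Ensembl 102 (GRCm38), with no option for pairs, strand or multiply mapped reads. Each read end is then counted by itself, without strand, and reads with several best places or several genes are dropped. Columns were assigned to groups by name; 0 other sample columns were present. Symbols matched 99.4% of gene identifiers.

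Counts were tested with edgeR 4.0.16 (glmQLFTest, TMM, filterByExpr with minimum count 10 and total 15, group as only term) in R 4.3.3, with Benjamini-Hochberg adjustment over 17988 genes and a threshold of 0.05. Profiles used a prior count of 2 and tested genes averaging 1 CPM or more whose symbol is not a clone name. The procedure was tested on simulated counts. No 2 libraries of the same group looked like one deposited under 2 names (chi-square per gene 9.93 to 53.0). Libraries of different groups were not compared in this way. Named beyond the 5 genes are list members with the smallest p (up to 6) or highest level (up to 4) and the 10 most similar profiles; some that the rule would name are not reported here. The genes and lists were chosen with earlier results of these data known. DESeq2 1.42.0, other scalings, no filter and leaving out each library were alternatives. Coding sequences were aligned with Biopython 1.88.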

Additional observations from a re-analysis of the deposited data

How the results depend on the processing

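All 5 genes stayed lower with clodrosome in all 50 alternative fits (5 genes under 10 alternatives). Of the 50, 22 passed the threshold, in fits that called 13.5% to 23.8% of all genes. The groups did not overlap for any of the 5 genes and every fit reuses the same libraries, so the sign could hardly change. With DESeq2 the log2 fold changes were -1.10, -1.18, -1.29, -1.63 and -1.24 for Hba-a1, Hba-a2, Hbb-bs, Hbb-bt and Alas2, with 0 called. Neutrophil genes called by DESeq2 numbered 4 in place of 2, while 22.8% of all genes were called. Scaling by library totals only gave -1.21 for Alas2, no longer called (edgeR adjusted p = 0.0530). It called 2 haem synthesis genes in place of 1, and 23.2% of all genes. With no low-count filter all 5 were called, Hba-a1 at -1.09, while 14.3% of all genes were. In that fit 6 neutrophil and 2 other globin genes were called. The same fit estimated an infinite prior degree of freedom in place of 5.32. It lowered the median quasi-dispersion of the 5 genes from 10.5 to 0.652, so its very small p-values are no support. Leaving globins out of the library totals changed no call of the 5. Leaving out each library in turn gave -1.36 to -0.45 for Hba-a1, -1.44 to -0.58 for Hba-a2 and -1.55 to -0.58 for Hbb-bs. It gave -1.94 to -0.75 for Hbb-bt and -1.54 to -0.54 for Alas2, with 0 to 5 of the 5 called. All 5 passed without encapsome library C, where 14.6% of all genes were called and Hba-a1 had an edgeR adjusted p of 0.0408. Over the fits leaving out 1 library, the genes called higher numbered 821 to 1964 and those called lower 1656 to 2432. In the lists, 5 to 9 endothelial, 2 to 5 red-cell membrane and 0 to 3 haem synthesis genes were called. So were 2 to 3 neutrophil and 3 to 4 platelet genes. Genes of haem uptake and breakdown called numbered 13 to 15, and red-cell transcription factor and receptor genes 3. These fits called 13.5% to 23.8% of all genes. The log2 difference of Alas2 to the globin sum was 0.06 and ran from -0.05 to 0.16, negative without clodrosome library B (-0.04) or encapsome library A (-0.05). No paired analysis was possible because the columns of the table do not carry the replicate numbers of the sample titles. Depth limits the untested red-cell genes, which had under 100 counts over all libraries.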

Other observations

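Besides the globins and Alas2, 20 genes had an encapsome B level at least 2-fold above both other encapsome libraries. Igkc, the constant part of the kappa antibody chain, was picked after its values were seen. It stood at 4.11, 3.91 and 6.69 CPM with clodrosome and at 1.78, 8.01 and 2.25 CPM with encapsome, so it shared the high encapsome B level but not the low clodrosome levels.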
